A study of Mus musculus with 11 samples.

Results

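The genes of glycolysis, glucose and lactate transport and the hypoxia response were followed in mouse hearts after myocardial infarction (MI). The list holds 37 gene symbols, which matched 38 of the 55513 genes in the count table, since the symbol Aldoa names a second row with 1 to 7 counts per library that was not used. It covers the enzymes from hexokinase to lactate dehydrogenase with their muscle and ubiquitous forms, 3 glucose transporters, 2 lactate transporters, the PFKFB enzymes and the pyruvate dehydrogenase kinases, and 6 genes of the hypoxia response. All 11 mice were female C57BL/6J mice aged 8 weeks. In 8 mice the left anterior descending coronary artery was tied off permanently, and tissue was taken on day 3, named infarct border zone in the labels and infarct with border zone in the study's text. Of these, 4 (A116, A117, A119 and A120) received A10i, which is GI254023X, an inhibitor of the protease ADAM10, at 100 mg/kg in DMSO from an osmotic minipump, and 4 (A105, A127, A128 and A129) received DMSO alone. The 3 sham mice (S1, S2 and S3) also received DMSO and gave healthy heart tissue, so no group was free of the solvent and no sham mouse received A10i. Each library came from 1 mouse.

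Glycolysis splits glucose into pyruvate and yields ATP without oxygen. Most of its steps have a form made mainly in muscle and other forms made in most cell types. The working heart lives mainly on fatty acids and lactate, takes up glucose through the insulin-responsive transporter GLUT4 (Slc2a4) and carries mostly the muscle enzyme forms. When oxygen is short, the subunit HIF-1α (Hif1a) escapes degradation, pairs with ARNT and binds hypoxia response elements near genes for glucose uptake, glycolysis, lactate export and pH control.

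The libraries held between 21702659 and 29511782 counts. Values for single mice below are normalized counts, that is, counts brought to a common library size with edgeR's TMM factors. Fold changes, standard errors (SE) and adjusted p-values are from edgeR's quasi-likelihood test over all genes, and a gene was called at an adjusted p under 0.01. The 12 cardiomyocyte markers summed to between 2722397 and 2766051 normalized counts in sham mice, and the infarcted samples were lower, at 1293960 to 1883075 in DMSO mice and 1586328 to 2170102 in A10i mice, with 9 and 10 of the 12 markers below every sham mouse. Skeletal muscle was nearly absent, with 6 markers summing to 51.2 to 208. Fewer cells of a type and less RNA per cell cannot be told apart in such bulk samples.

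Against sham hearts, the infarcted DMSO hearts held more RNA of some ubiquitous forms and of several hypoxia targets, and less RNA of several muscle forms. Of the 36 members tested, 12 were higher in DMSO mice, which is 33.3% beside 12.9% of all 17119 genes tested. These were Hk1, Hk3, Pfkp, Gapdh, Pgam1, Ldha, Slc2a1, Slc2a3, Slc16a3, Pdk3, Car9 and Hif1a. Another 5, Pfkm, Eno3, Slc2a4, Pfkfb1 and Pdk2, were lower, which is 13.9% beside 9.6% of all genes. DESeq2 also called Eno1, Bnip3 and Ndrg1 higher, and below, a gene is said to be called or not called by edgeR unless another tool is named. Aldoc did not pass the filter on low counts. The median log2 fold change of the members was 0.34, beside 0.0022 for all genes. Without any 1 of the 3 sham mice the higher calls fell to 7, and the lower calls to 1 without S1 and 0 without S2 or S3. Hk3, Pfkp, Gapdh, Slc2a1, Slc16a3, Pdk3 and Hif1a kept their call in each of the 7 fits that left out 1 mouse, whereas Hk1 kept it in 2 and Slc2a3 in 1.

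In A10i against sham hearts, 11 of 37 members were higher (29.7%, beside 13.8% of 17004 genes) and 2, Pfkfb2 and Pdk2, were lower (5.41%, beside 9.09%). DESeq2 called 7 members lower, adding Hk2, Pfkm, Eno3, Ldhb and Slc2a4, so the lower count depends on the tool, and it also called Hk1, Pfkfb4 and Bnip3 higher. In edgeR the lower count was 0 without any 1 sham mouse or without A120 and 6 without A116, and the higher count was 7 without S1 or S2. Both comparisons use the same 3 sham mice. The higher members in A10i hearts were Hk3, Pfkp, Gapdh, Pgam1, Eno1, Ldha, Slc2a1, Slc16a3, Pdk3, Car9 and Hif1a. The median log2 fold change of the members was 0.19, beside -0.0056 for all genes. Pfkp, Pgam1, Ldha, Slc2a1, Slc16a3, Pdk3 and Car9 kept their call in each of the 7 fits that left out 1 mouse.

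**Figure D1:**
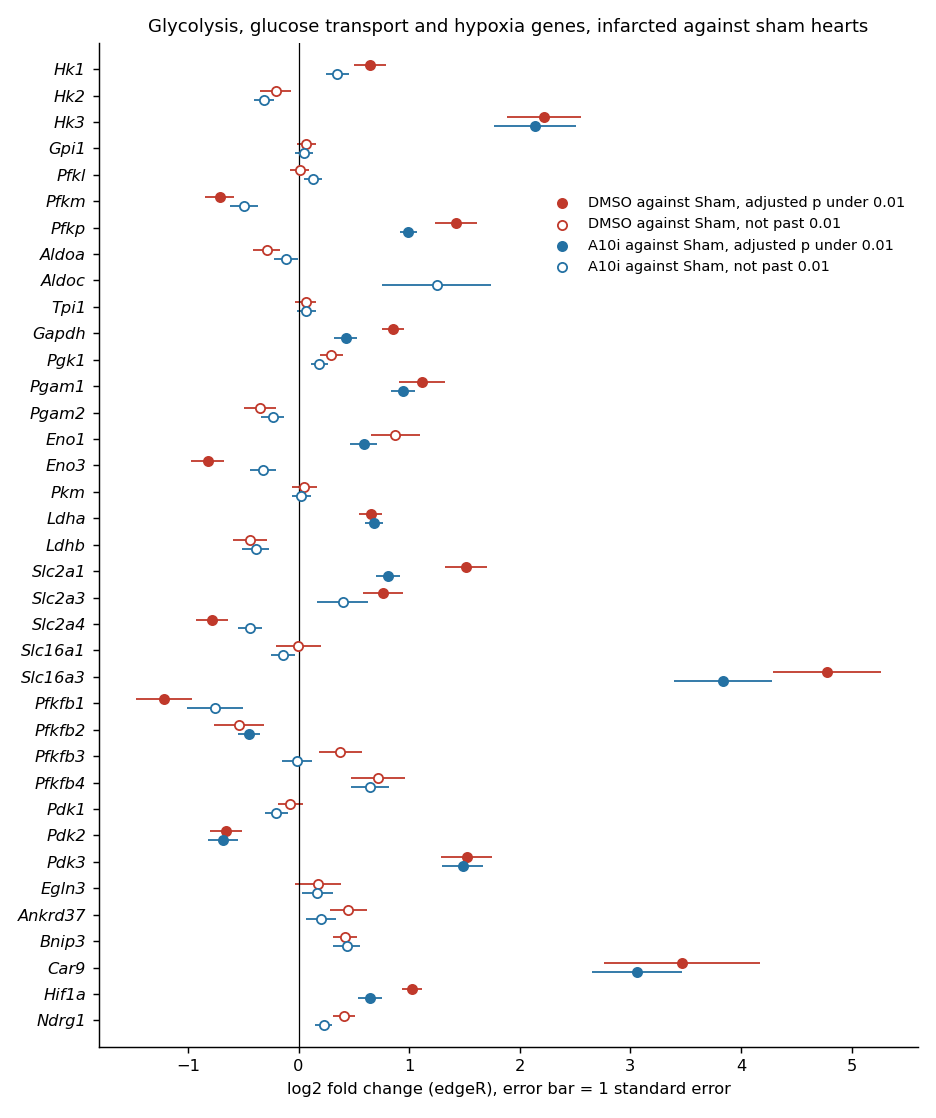
Log2 fold changes of the 37 members in DMSO (red) and A10i (blue) against sham hearts on the horizontal axis, with bars of 1 SE and filled points for an adjusted p under 0.01. Slc16a3 and Car9 lie farthest to the right, at 4.78 and 3.47 in DMSO mice, and Pfkfb1 lies farthest to the left, at -1.22. Aldoc has no DMSO value because it was not tested there.

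In glucose transport, RNA of the muscle transporter was lower and that of the ubiquitous transporter higher in infarcted hearts. Slc2a4 encodes GLUT4, which insulin and contraction bring to the surface of muscle cells. Its normalized counts were 10785, 10742 and 10806 in sham, 6251, 7597, 6694 and 4716 in DMSO, and 6356, 8126, 8958 and 8331 in A10i mice. Every infarcted heart lay below every sham heart, and A129 was the lowest. In DMSO mice Slc2a4 fell by 0.78 on the log2 scale (SE 0.14, edgeR adjusted p = 0.0024), a call that was lost without any 1 sham mouse, at -0.78 to -0.79. The A10i difference of -0.44 (SE 0.11) narrowly missed the call with an edgeR adjusted p of 0.0107.

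Slc2a1 encodes GLUT1, the insulin-independent transporter of most cells and a HIF target. It had normalized counts of 481, 480.3 and 448 in sham, 1504, 1001, 1149.8 and 1755 in DMSO, and 979, 809.8, 734 and 757 in A10i mice. The 3 groups did not overlap, with sham lowest, A10i between and DMSO highest. Slc2a1 rose by 1.52 on the log2 scale in DMSO (SE 0.19, edgeR adjusted p = 0.00057) and by 0.81 in A10i hearts (SE 0.11, edgeR adjusted p = 0.00049). Slc2a3, which encodes the high-affinity transporter GLUT3 of neurons and leukocytes, was far less abundant at 53.5 to 71.2 normalized counts in sham, 99.5 to 124 in DMSO and 66.4 to 112 in A10i mice. It rose by 0.76 on the log2 scale in DMSO hearts, and A10i mice overlapped sham mice. Per length of exon, Slc2a4 made up 95.8% to 96.1% of the sum of Slc2a4 and Slc2a1 in sham, 73.0% to 88.4% in DMSO and 86.7% to 92.5% in A10i mice.

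Hexokinases trap glucose in the cell by phosphorylation. Hk1, the form of brain and most tissues, had 5254 to 5800.4 normalized counts in sham, 6582 to 10340.1 in DMSO and 6273 to 8278 in A10i mice, and rose by 0.64 on the log2 scale in DMSO hearts. Hk2, the insulin-regulated form of muscle and heart, had 11079.9 to 12203 in sham, 8430.1 to 12771 in DMSO and 8533 to 10541 in A10i mice and was not called, with log2 differences of -0.21 and -0.31. Per length, Hk2 made up 74.4% to 76.4% of the sum of Hk1 and Hk2 in sham, 56.1% to 69.8% in DMSO and 62.6% to 68.7% in A10i mice.

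Hk3 is the hexokinase of myeloid blood cells. Its normalized counts were 42.3, 40.8 and 56.6 in sham, 156, 273, 136 and 308 in DMSO, and 354, 178, 146 and 139.7 in A10i mice. All infarcted hearts were above all sham hearts, while the DMSO and A10i mice overlapped. Hk3 rose by 2.22 on the log2 scale in DMSO (SE 0.33, edgeR adjusted p = 0.00115) and by 2.14 in A10i hearts (SE 0.37, edgeR adjusted p = 0.0024), the latter call being lost without S1 (2.07) or S2 (2.05). The 12 macrophage and monocyte markers summed to 2.15 times the sham mean in DMSO and 2.77 times in A10i hearts, with 10 and 11 of the 12 markers above every sham mouse. The 13 neutrophil markers summed to 40.1 times the sham mean in DMSO and 12.6 times in A10i hearts. The sums were 92.1 to 129.1 normalized counts in sham, 2788 to 5689 in DMSO and 722 to 1967 in A10i mice. In both groups 11 of 13 markers were above every sham mouse, and in A10i hearts 1 was below every sham mouse. Ly6g was at 0 in every sham library. The part of these cells in the results for Hk3 and for the ubiquitous forms was not tested.

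Glucose-6-phosphate isomerase (Gpi1), which makes fructose-6-phosphate, was level across the groups, with log2 differences from sham of 0.07 and 0.05. Phosphofructokinase commits the sugar to glycolysis and has 3 genes. Pfkm, the muscle form, had 30733, 30721 and 29684 normalized counts in sham, 19724, 20664, 19755 and 14509.8 in DMSO, and 16534, 23894, 24192 and 21478 in A10i mice. All infarcted hearts were below all sham hearts, and Pfkm fell by 0.71 on the log2 scale in DMSO hearts. The A10i difference of -0.49 was not called. Pfkl, the liver form, showed log2 differences of 0.01 and 0.13 and was not called in either comparison.

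Pfkp, the platelet form, is found in many cell types. In normalized counts it had 1649, 1542 and 1683 in sham, 5789.7, 3242, 3657 and 4873 in DMSO, and 3509.8, 2933, 3268 and 3179 in A10i mice. Each infarcted heart exceeded each sham heart, with A105 the highest and the 4 A10i mice close together. Pfkp rose by 1.42 on the log2 scale in DMSO (SE 0.19, edgeR adjusted p = 0.000773) and by 0.99 in A10i hearts (SE 0.08, edgeR adjusted p = 6.77e-05).

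Few genes of the middle steps were called. Aldoa, the aldolase of muscle and red cells, had 55261 to 56100.1 normalized counts in sham, 40368 to 51492 in DMSO and 45388 to 57710.4 in A10i mice, with uncalled log2 differences of -0.29 and -0.12. Aldoc, the aldolase of brain, had only 3 to 32 counts in any library. Triosephosphate isomerase (Tpi1), at 12996 to 14898 over all mice, and phosphoglycerate kinase (Pgk1), an ATP-yielding enzyme and HIF target at 1077 to 1611, were not called in either comparison. For Pgk1 the log2 differences were 0.30 and 0.19. Its counts cover only part of its reads, since 67.0% of the 100-base stretches of its transcripts also occur in 3 other annotated genes. Those genes held 1216 to 1732 counts per library. With their counts added, Pgk1 was still not called, at 0.26 and 0.17.

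Gapdh, the dehydrogenase of the pathway and a common reference gene, had 276, 304 and 316 normalized counts in sham, 530.4, 599, 504 and 541 in DMSO, and 371, 365, 427 and 437 in A10i mice. The groups did not overlap, and Gapdh rose by 0.85 on the log2 scale in DMSO (SE 0.10, edgeR adjusted p = 0.00032) and by 0.42 in A10i hearts (SE 0.10, edgeR adjusted p = 0.00772). These counts cover a small part of its reads, since 53.1% of the 100-base stretches of its transcripts also occur in 86 other annotated genes and the authors kept uniquely aligned reads. Those genes together held 1981 to 2493 counts per library, against 248 to 697 for Gapdh itself. With their counts added, the log2 differences were 0.0046 in DMSO (edgeR adjusted p = 0.97) and -0.04 in A10i hearts (edgeR adjusted p = 0.665), so the Gapdh calls hold only for the reads unique to the gene. The A10i call was also lost without S1 (0.37), S2 (0.44), S3 (0.46), A119 (0.40) or A120 (0.38).

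Phosphoglycerate mutase has a muscle form, Pgam2, and a ubiquitous form, Pgam1. Pgam1 had 309, 286 and 270.4 normalized counts in sham, 543, 551, 514 and 905 in DMSO, and 658, 512, 547 and 498 in A10i mice, with all infarcted hearts above sham and A129 far above the rest. It rose by 1.12 on the log2 scale in DMSO (SE 0.21, edgeR adjusted p = 0.00316) and by 0.95 in A10i hearts (SE 0.11, edgeR adjusted p = 0.000326). Of its 100-base stretches 39.7% occur in 2 other genes, and both calls remained when their counts were added. The DMSO call was lost without any 1 sham mouse, at 1.07 to 1.16. Pgam2 had 8460.4 to 8977 in sham, 5246 to 8474 in DMSO and 6168 to 8236 in A10i mice and was not called, with log2 differences of -0.35 and -0.23.

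Enolase makes phosphoenolpyruvate. Eno3, its muscle form, had 31711, 32473 and 30915 normalized counts in sham, 20698, 21181, 16431 and 13939.6 in DMSO, and 21292, 23823, 28019 and 28031 in A10i mice. The 3 groups did not overlap, with DMSO mice lowest. Eno3 fell by 0.82 on the log2 scale in DMSO hearts (SE 0.15, edgeR adjusted p = 0.00241), though not past the threshold without any 1 sham mouse (-0.81 to -0.84), and in A10i hearts the difference was -0.32 (SE 0.11, edgeR adjusted p = 0.0464) and was not called. Eno1, the ubiquitous form and a HIF target, had 1174 to 1258 in sham, 1575 to 3257 in DMSO and 1581 to 2301 in A10i mice. It rose by 0.59 on the log2 scale in A10i hearts, a call lost in a joint fit of all 11 libraries (edgeR adjusted p = 0.0552). The DMSO difference of 0.88 missed the call (edgeR adjusted p = 0.0127) but was called by DESeq2 (adjusted p = 0.000223), in the joint fit (edgeR adjusted p = 0.00717) and with the counts of 4 genes that share its sequence added (0.99, edgeR adjusted p = 0.00846). Pkm, pyruvate kinase of muscle and most other tissues, was level at log2 differences of 0.05 and 0.02, and gene counts do not separate its M1 and M2 splice forms.

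Lactate dehydrogenase converts pyruvate to lactate and back, Ldha encoding the subunit of skeletal muscle and hypoxic tissue and Ldhb that of the heart. Ldha had 10933, 10707 and 11179 normalized counts in sham, 16739, 18038, 15825 and 18561 in DMSO, and 16622, 17531, 17104 and 18802 in A10i mice. All 8 infarcted hearts lay above sham hearts and the treated and untreated mice overlapped, with rises of 0.65 and 0.68 on the log2 scale. Ldhb had 19548 to 20386 in sham, 10469.7 to 17259.8 in DMSO and 11930.3 to 17215 in A10i mice. It was below sham in every infarcted heart but was not called, with log2 differences of -0.44 and -0.39. Per length, Ldhb made up 79.4% to 79.6% of both forms in sham, 54.3% to 68.9% in DMSO and 60.2% to 67.4% in A10i mice.

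Lactate crosses the cell membrane through monocarboxylate transporters. Slc16a3 encodes MCT4, the exporter of glycolytic cells. The normalized counts were 50.1, 17.1 and 29.8 in sham, 741, 664, 572 and 1539 in DMSO, and 716, 483, 287 and 332 in A10i mice. Each infarcted heart was far above each sham heart, and A129 was highest. Slc16a3 rose by 4.78 on the log2 scale in DMSO (SE 0.49, edgeR adjusted p = 0.000267) and by 3.84 in A10i hearts (SE 0.44, edgeR adjusted p = 0.000566). Slc16a1 encodes MCT1, through which the heart takes up lactate, and had 8452 to 8768 in sham, 6820.0 to 12745 in DMSO and 6775 to 9445 in A10i mice. It was not called, and its small log2 differences of -0.00073 and -0.14 changed sign when libraries were scaled by their totals alone.

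The PFKFB enzymes set the level of fructose-2,6-bisphosphate, which activates phosphofructokinase. Pfkfb1, the form of liver and muscle, had 260.4, 369 and 382 normalized counts in sham, 176, 124, 196 and 88.9 in DMSO, and 123, 228, 168 and 280.5 in A10i mice. DMSO mice were all below sham mice, whereas A120 lay among them. Pfkfb1 fell by 1.22 on the log2 scale in DMSO hearts (SE 0.25, edgeR adjusted p = 0.00542) and the A10i difference was -0.75 (SE 0.26, edgeR adjusted p = 0.0448). The DMSO call was lost without S2 (-1.15), S3 (-1.12) or A127 (-1.14). Pfkfb2, the heart form, had 1665 to 2029.9 in sham, 878 to 1900.0 in DMSO and 1125 to 1481 in A10i mice. It fell by 0.45 on the log2 scale in A10i hearts and was not called in DMSO hearts at -0.54, where the spread was wider. The A10i call of Pfkfb2 was lost in the joint fit of all 11 libraries (edgeR adjusted p = 0.124). It held in 3 of the 7 fits that left out 1 mouse. The inducible Pfkfb3 (log2 differences 0.38 and -0.01) and Pfkfb4 (0.72 and 0.65), both HIF targets, were not called by edgeR, and DESeq2 called Pfkfb4 in A10i hearts (adjusted p = 0.00555).

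Pyruvate dehydrogenase kinases keep pyruvate out of the mitochondrial oxidation step. Pdk2, the kinase most widespread in heart, had 12207, 12202 and 12089 normalized counts in sham, 8132, 8232, 9116 and 5653 in DMSO, and 5621, 8619.5, 8517 and 7516 in A10i mice. All infarcted hearts were below all sham hearts, and Pdk2 fell by 0.66 and 0.68 on the log2 scale. Pdk1, a classical HIF target, had 5341 to 5663 in sham, 4355 to 6184 in DMSO and 3971 to 5330 in A10i mice and was not called at log2 differences of -0.07 and -0.20.

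Pdk3, a further HIF target, moved opposite to Pdk2. There were 65.7, 82.6 and 64.8 normalized counts in sham, 150.5, 179, 212 and 281 in DMSO, and 257, 183, 168 and 188 in A10i mice. No infarcted heart reached down to the sham range. Pdk3 rose by 1.52 on the log2 scale in DMSO (SE 0.23, edgeR adjusted p = 0.00106) and by 1.48 in A10i hearts (SE 0.18, edgeR adjusted p = 0.000386).

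The hypoxia response split into genes that edgeR called and genes that it did not, some of which missed the threshold narrowly. Hif1a itself had 2148, 2237 and 2270.5 normalized counts in sham, 4601, 4176, 4554 and 4862 in DMSO, and 4181, 3191, 2989 and 3456 in A10i mice. All infarcted hearts were above sham, and A116 alone among the A10i mice reached the DMSO range. Hif1a rose by 1.03 on the log2 scale in DMSO (SE 0.09, edgeR adjusted p = 8.44e-05) and by 0.64 in A10i hearts (SE 0.11, edgeR adjusted p = 0.00161), the latter call being lost without S1 (0.61) or S2 (0.65). Its mRNA says nothing of HIF-1α protein, which is controlled by degradation.

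Car9 encodes carbonic anhydrase 9, a pH-regulating surface enzyme and a sensitive HIF target. Its normalized counts were 3.34, 5.7 and 3.08 in sham, 29.2, 40.4, 18.9 and 98.9 in DMSO, and 48.5, 32.6, 22.2 and 36.6 in A10i mice. The infarcted hearts were all above sham, from a base of 3 to 6 raw counts per sham library. Car9 rose by 3.47 on the log2 scale in DMSO (SE 0.71, edgeR adjusted p = 0.00497) and by 3.06 in A10i hearts (SE 0.41, edgeR adjusted p = 0.000547). The DMSO call was lost under limma-voom (adjusted p = 0.0153) and without any 1 sham mouse (log2 differences 3.30 to 3.81).

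The other 4 genes of the response were not called by edgeR against sham, whereas DESeq2 called Bnip3 in DMSO (adjusted p = 0.00154) and A10i hearts (adjusted p = 0.00415) and Ndrg1 in DMSO hearts (adjusted p = 0.00277). Bnip3, a mitophagy receptor, had 2591 to 3145 normalized counts in sham, 3287 to 4138 in DMSO and 3067 to 4408 in A10i mice, with log2 differences of 0.42 and 0.44 (edgeR adjusted p = 0.0122 in DMSO). Of its 100-base stretches 31.6% occur in 4 other genes, and Bnip3 remained uncalled by edgeR with the counts of 3 of them added. Ndrg1, a stress-induced protein, had 1103 to 1186 in sham, 1402 to 1783 in DMSO and 1256 to 1494 in A10i mice, and came closest in DMSO with a log2 difference of 0.41 (edgeR adjusted p = 0.0102). Both genes had DMSO mice wholly above sham mice, and in Ndrg1 the A10i mice were above them too. The DMSO mice were also above sham for Ankrd37, but only just (lowest DMSO mouse 129.9, highest sham mouse 129.1). Egln3, the oxygen-sensing prolyl hydroxylase PHD3, ranged from 1559 to 2902 in DMSO mice around a sham range of 1897 to 2081, and Ankrd37, a small ankyrin-repeat protein, showed log2 differences of 0.45 and 0.20. Of the exon bases of Ankrd37 26.4%, of Bnip3 22.3%, of Car9 9.29%, of Ndrg1 8.43% and of Slc16a3 5.75% overlap genes on the other strand, and the strand setting of the counting is not given in the sources used here. On the same strand, 17.4% of the exon bases of Pfkfb2, 15.3% of Pkm, 10.2% of Pfkm and 2.51% of Hif1a overlap other genes. The effect of these overlaps on the counts was not tested.

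**Figure D2:**
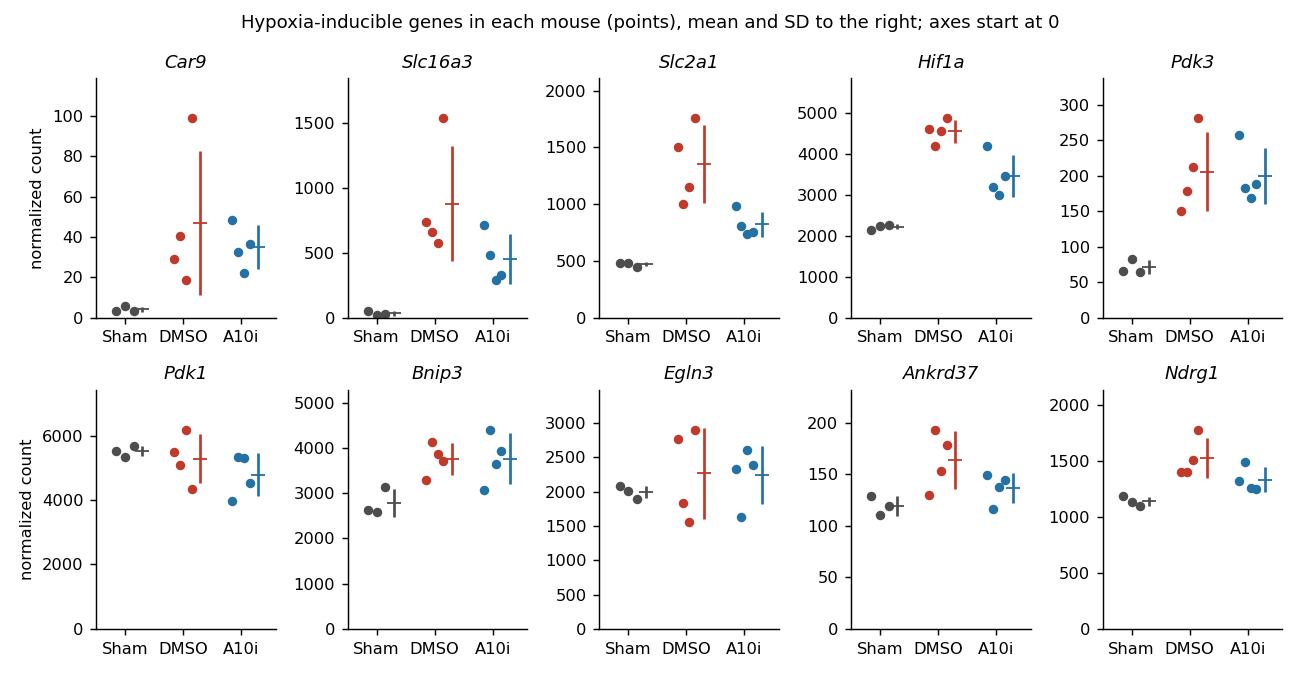
Normalized counts (vertical axes, from 0) of 10 genes counted among HIF and its targets in each mouse, with the group mean and SD to the right of the points. Car9, Slc16a3, Slc2a1, Hif1a, Pdk3 and Ndrg1 have all 8 infarcted mice above the 3 sham mice, whereas Pdk1 and Egln3 overlap. For Slc2a1 the A10i mice, at 734 to 979, also lie below the DMSO mice, at 1001 to 1755.

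HIF binds a core written ACGTG or GCGTG. For 34 of the 37 members RefSeq (build GRCm38.p6) gives a window from 250 bases before to 50 bases after the start. The following stretches of 30 bases upstream of the start, read 5′ to 3′ on the strand of the gene, are shown for 5 members that rose and for 2 muscle forms whose window holds no ACGTG, with every ACGTG on either strand in capitals (CACGT is its reverse complement, and CACGTG, the E-box, holds both).
Car9, chr4:43506996-43507025, plus strand: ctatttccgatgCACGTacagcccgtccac
Slc16a3, chr11:120949034-120949063, plus strand: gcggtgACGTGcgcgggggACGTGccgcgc
Slc2a1, chr4:119108697-119108726, plus strand: gtcccgccccggACGTGctccccaggcccc
Ldha, chr7:46845749-46845778, plus strand: cagcctaCACGTGggttcccgCACGTccgc
Hif1a, chr12:73907720-73907749, plus strand: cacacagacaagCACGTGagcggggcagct
Eno3, chr11:70657146-70657175, plus strand: gctggctgggggacagggtggcttggagat
Pgam2, chr11:5803797-5803826, minus strand: ctggttgcctgcctctgcctgtatctcctg

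ACGTG on either strand was found in the window of 10 of the 11 members called higher in DMSO hearts that have one, Pfkp being the exception. It was found in 2 of the 4 called lower, Eno3 and Pfkfb1 lacking it, and in 11 of the 19 not called. Those 19 include Aldoc, which holds ACGTG but was not tested in DMSO hearts. Of all members with a window 23 of 34 (67.6%) hold it, beside 21.8% of all genes with a window. The list was chosen to include known HIF targets, so a share above that of all genes is set in part by the choice of members. With GCGTG also accepted the shares were 11 of 11, 4 of 4 and 16 of 19, beside 46.7% of all genes. The windows were not matched for base composition, part of the matches lie within E-boxes bound by other factors, and a match is no evidence of binding. Among the uncalled hypoxia genes, Ankrd37, Bnip3 and Egln3 also hold ACGTG and Pdk1 does not.

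Muscle or cardiac forms were set against other forms of the same step within each library, as the log2 ratio of their counts, in 14 pairs. Such a ratio does not depend on how libraries are scaled. In the 8 infarcted hearts, DMSO and A10i together, the ratio was below that of the 3 sham hearts in 13 of 14 pairs (exact permutation test over 165 splits, two-sided, adjusted over the 14 pairs at 0.05). For 12 of them the p was 0.01212, the smallest this design allows (adjusted p = 0.01414 over the exact tests), and every infarcted heart lay below every sham heart. Ratios of other genes were not computed, so these counts have no background share beside them. The summed cardiomyocyte markers were at 0.59 times the sham mean in DMSO and 0.691 times in A10i hearts. Their part in the ratios was not tested. The pairs were chosen with earlier results of these data known. The 14 pairs are not independent, because Slc2a4, Hk2, Pfkm and Pdk2 each enter 2 of them. Nor is the other form ubiquitous in every pair. Hk3 is the form of myeloid cells, Slc2a3 of neurons and leukocytes and Aldoc of brain. Ldha is the form of skeletal muscle and hypoxic tissue, and Slc16a3 that of glycolytic cells.

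The pairs differed in size. Slc16a1 to Slc16a3 moved most, by -4.39 on the log2 scale, from means of 8.16 (SD 0.78, n = 3) in sham to 3.37 (SD 0.85, n = 4) in DMSO and 4.18 (SD 0.77, n = 4) in A10i mice. Hk2 to Hk3 differed by -2.35, Pdk2 to Pdk3 by -2.17, Pfkm to Pfkp by -1.81 and Slc2a4 to Slc2a1 by -1.76. The enzyme pairs Pgam2 to Pgam1 (-1.31), Eno3 to Eno1 (-1.28) and Ldhb to Ldha (-1.10) formed a middle group with Slc2a4 to Slc2a3 (-1.19).

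Smaller were the differences of Hk2 to Hk1 (-0.75), Pfkm to Pfkl (-0.69) and Pdk2 to Pdk1 (-0.54). Aldoa to Aldoc differed by -1.43 (exact permutation p = 0.02424, adjusted p = 0.02611) but rests on the few counts of Aldoc. Pfkfb2 to Pfkfb3 differed by -0.67 and did not pass (exact permutation p = 0.06061). In Ldhb to Ldha the sham mice were close together at 0.87 (SD 0.01, n = 3), against -0.24 (SD 0.42, n = 4) in DMSO and -0.21 (SD 0.21, n = 4) in A10i mice. With S1 or S3 left out 0 pairs passed and without S2 13 did. With 2 sham mice there are so few splits that pairs pass after adjustment only if nearly all of them reach the smallest p. The direction did not change with any 1 mouse left out, as for Slc2a4 to Slc2a1 at -1.89 to -1.58. In addition, 4 infarcted against 3 sham mice alone could not pass the test.

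**Figure D3:**
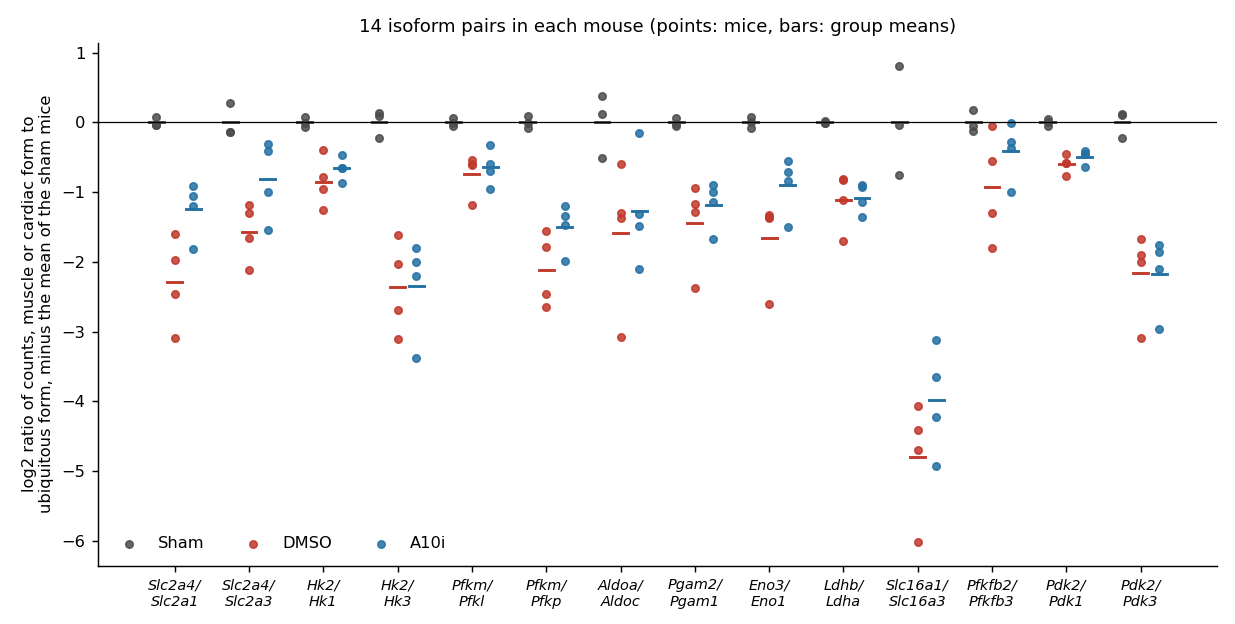
Log2 ratio of the counts of the muscle or cardiac form to the other form in each mouse, minus the mean of the sham mice, for 14 pairs (points are mice, bars are group means, and 0 is the sham mean). All 8 infarcted mice lie below the 3 sham mice in 12 pairs, and the fall is deepest for Slc16a1 to Slc16a3, at -4.39 for the 8 infarcted mice together.

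Mouse A129 recurred at the ends of these ranges. Among the 8 infarcted mice it was highest in 15 of the 37 members, Car9, Slc16a3, Slc2a1, Hif1a, Pdk3, Eno1 and Pgam1 among them, and lowest in 7 of the 11 muscle or cardiac forms. It also had the lowest cardiomyocyte marker sum, 1293960 normalized counts. With A129 left out, the DMSO comparison kept its directions for all 12 members with full statistics.

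Because the cardiomyocyte markers were lower in infarcted tissue, 11 muscle or cardiac forms were also set against the summed counts of the 12 markers in each library. On that scale 5 of them, Slc16a1 (log2 difference 0.57), Aldoa (0.45), Hk2 (0.39), Pgam2 (0.36) and Ldhb (0.23), were higher in the 8 infarcted than in the 3 sham hearts, with an adjusted p of 0.02667 each (exact permutation test), and 0 were lower. The other 6 did not pass, with log2 differences of 0.04 for Slc2a4, 0.04 for Pfkm, 0.08 for Eno3, 0.14 for Pfkfb2, -0.03 for Pdk2 and -0.36 for Pfkfb1. The direction depended on the markers. With the 3 troponin genes alone as the reference, 0 forms were higher and 6 lower (Slc2a4, Pfkm, Eno3, Ldhb, Pfkfb1 and Pdk2), and without Myh6, 3 were higher, so that the sign differed with the reference. With any 1 sham mouse left out, 0 forms passed in either direction on the scale of the 12 markers, since 2 sham mice leave too few splits.

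**Figure D4:**
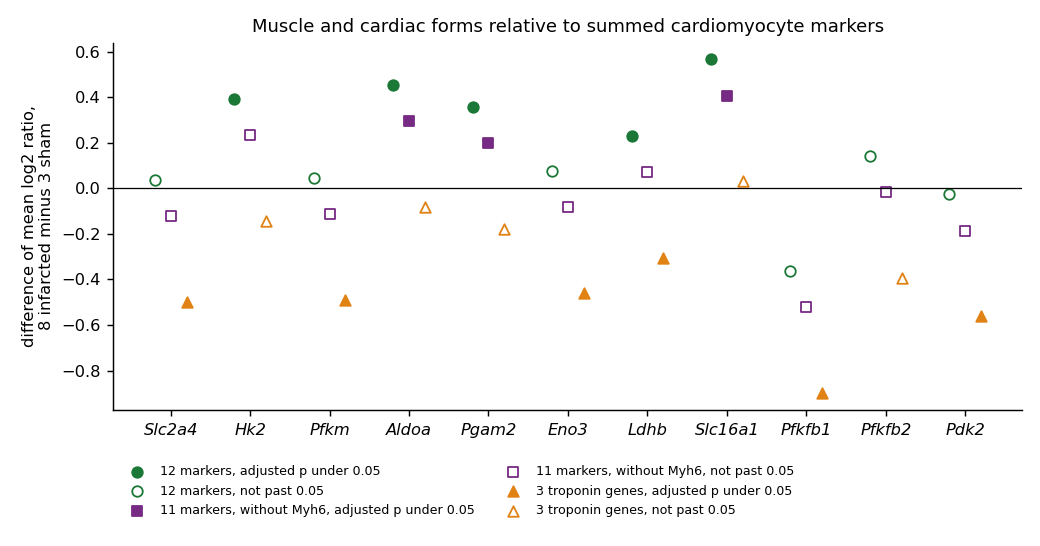
Difference between 8 infarcted and 3 sham mice in the mean log2 ratio of each muscle or cardiac form to a marker sum, with circles for 12 cardiomyocyte markers, squares for 11 without Myh6 and triangles for 3 troponin genes (filled where the adjusted exact permutation p was under 0.05). The triangles lie below the circles for all 11 forms, as for Slc2a4 at -0.50 and 0.04.

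Between A10i and DMSO hearts, edgeR called 0 of 37 members higher (0% of 16793 genes) and 0 lower (0% of all genes), and DESeq2 called Gapdh alone (adjusted p = 0.00765). The share of all genes that DESeq2 called is not given here. The study used DESeq2 with weighting of its tests at the same threshold of 0.01 and reported genes changed in both directions by A10i. The edgeR shares of 0% therefore depend on the tool. At an unadjusted p under 0.05, 1 member was higher in A10i mice, Eno3 (7.1% of all genes), and 5 were lower, Pfkp, Gapdh, Slc2a1, Slc16a3 and Hif1a (6.73% of all genes). The 4 mice of each group did not overlap in 3 of 37 members, Eno3, Gapdh and Slc2a1, beside 8.18% of all genes, which is about the same share. The median log2 difference of the members was -0.09, beside 0.0034 for all genes.

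The 6 genes are given with their values as a description. The mean of Slc2a1 was lower by 0.71 on the log2 scale (SE 0.18, edgeR adjusted p = 0.139), that of Hif1a by 0.39 (SE 0.11, edgeR adjusted p = 0.178) and that of Slc16a3 by 0.94 (SE 0.36, edgeR adjusted p = 0.293). In all 6 genes the A10i mean lay between the sham and the DMSO mean. The 6 were chosen for a difference between A10i and DMSO mice, so this position is partly set by that choice. The share of all genes with such a position was not counted. Pfkp was lower by 0.44 (SE 0.17, edgeR adjusted p = 0.289) and Gapdh by 0.43 (SE 0.10, edgeR adjusted p = 0.105), the latter by 0.05 when the counts of its copies were added. Eno3 was higher by 0.50 (SE 0.16, edgeR adjusted p = 0.227).

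None of the 14 isoform ratios passed between A10i and DMSO hearts. The lowest exact permutation p was 0.05714, for Slc2a4 to Slc2a1, whose ratio was 1.04 higher on the log2 scale in A10i mice (adjusted p = 0.4). Beside these values the neutrophil markers were at 0.315 times the DMSO mean in A10i hearts (exact permutation p = 0.02857), with 6 of 13 markers below every DMSO mouse. The cardiomyocyte markers were at 1.17 times (exact permutation p = 0.1714) and the fibroblast markers at 1.55 times (exact permutation p = 0.1714). The endothelial markers were at 1.15 times (exact permutation p = 0.02857, the smallest that 70 splits allow). Macrophage and monocyte markers were at 1.29 times (exact permutation p = 0.2286) and red blood cell markers at 1.54 times (exact permutation p = 0.3143). The p-values of the marker lists are not adjusted for the number of lists. The part of these cells in the 6 values was not tested.

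The neighbouring pathways were covered by 7 lists of further genes. Their counts stand beside 12.9% higher and 9.6% lower of all genes in DMSO hearts and 13.8% and 9.09% in A10i hearts, and in lists of 7 to 22 genes a share rests on few genes. In DMSO against sham hearts edgeR called 3 of 7 genes of the pentose phosphate pathway higher and 0 lower, and in A10i hearts 4 higher and 0 lower. Of these G6pdx, whose enzyme opens the pathway and yields NADPH, rose by 1.31 and 1.10 on the log2 scale, Pgd, the next NADPH-yielding enzyme, by 1.00 and 0.80, and Taldo1, transaldolase, by 0.58 and 0.27. G6pdx had 181 to 206 normalized counts in sham, 408 to 678 in DMSO and 279 to 584 in A10i mice.

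Of 15 glycogen genes, 1 was higher (6.67%) and 5 were lower (33.3%) in DMSO hearts, and 0 and 2 (13.3%) in A10i hearts. Pygl, the liver glycogen phosphorylase, rose by 1.42 on the log2 scale in DMSO hearts, whereas Epm2a, the glycogen phosphatase laforin, fell by 0.95 and 0.86 and Phkb, a subunit of phosphorylase kinase, by 0.67 and 0.52. Of 11 genes of pyruvate entry into mitochondria, 1 was higher and 1 lower in DMSO and 1 and 3 in A10i hearts. The one that rose, Pdk4, the kinase induced in fasting, had 3943 to 5803 normalized counts in sham, 26472 to 44671 in DMSO and 10969 to 36894 in A10i mice, with log2 differences of 2.82 and 2.29. Pdp2, a phosphatase with the opposite action, fell by 1.29 and 0.72.

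Of 14 further transport genes tested, 3 were higher and 0 lower in DMSO hearts, and 3 and 3 in A10i hearts. Slc2a6, a transporter of leukocytes, rose by 3.01 and 3.03 on the log2 scale from 2.85 to 5.56 normalized counts in sham to 28.3 to 44.9 in DMSO mice, and Slc2a10 by 0.97 and 0.94. Txnip, which restrains glucose uptake, rose by 0.88 in DMSO hearts and differed by 0.33 in A10i hearts, without a call. Among 14 other glycolysis genes 1 was higher and 1 lower in DMSO and 1 and 2 in A10i hearts. Pgm2, a phosphoglucomutase, rose by 0.93 and 0.79, and Galm, which interconverts the anomers of sugars, fell by 0.69 and 0.46.

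Of 11 regulators of HIF tested, 1 was higher (9.09%) and 3 lower (27.3%) in DMSO hearts, and 0 and 3 (27.3%) in A10i hearts. Epas1, which encodes HIF-2α, fell by 0.63 and 0.44 on the log2 scale, and Egln1, the main oxygen-sensing prolyl hydroxylase PHD2, by 0.78 and 0.44. Siah2, a ubiquitin ligase for the hydroxylases, rose by 0.92 in DMSO hearts and differed by 0.47 in A10i hearts, without a call.

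Of 22 other HIF targets tested, 6 were higher (27.3%, beside 12.9% of all genes) and 4 lower (18.2%, beside 9.6%) in DMSO hearts, and 6 (27.3%, beside 13.8%) and 2 (9.09%, the same share as of all genes) in A10i hearts. Angptl4, an inhibitor of lipoprotein lipase, rose by 5.86 and 4.40 on the log2 scale, with 22.6 to 30 normalized counts in sham, 1088 to 2369.5 in DMSO and 215 to 762.4 in A10i mice. Lox, which crosslinks collagen, rose by 5.41 and 5.53. In A10i against DMSO hearts edgeR called 0 of the 93 genes tested from the 7 lists, 8 were higher (8.6%, beside 7.1% of all genes) and 12 lower (12.9%, beside 6.73%) at an unadjusted p under 0.05, and DESeq2 called 2, Bhlhe40 among them. These genes also answer signals other than hypoxia, and fibroblast markers were at 3.39 and 5.26 times the sham mean in the same hearts, whose part in these results was not tested.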

How the data were processed

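RNA of 11 mouse hearts was sequenced, from 4 A10i, 4 DMSO and 3 sham mice. The authors enriched poly(A) RNA, made libraries that keep the strand, mapped the pairs to mm10 with GSNAP and, with featureCounts 2.0.1, counted those that mapped to 1 place per Ensembl gene. The deposited values are these raw counts, without normalization, for 55513 genes, of which 55154 identifiers matched a symbol of the annotation used here. Totals of 21702659 to 29511782 counts bound the precision, so genes with few counts, such as Car9 and Aldoc, are the least precise.

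Each comparison was fitted on the 2 groups compared with edgeR 4.0.16 in R 4.3.3 (filterByExpr, TMM, robust quasi-likelihood F-test, two-sided, Benjamini-Hochberg adjustment over all genes, threshold 0.01). DESeq2 1.42.0, limma-voom (limma 3.58.1), other scalings and filters, a joint fit, a looser threshold (0.05) and fits without 1 mouse each were alternatives, and the addition of the counts of genes that share a 100-base stretch was chosen after seeing the data. Shares of all genes called are those of edgeR, so counts called by DESeq2 have no such share beside them. The scripts were tested on simulated data. Isoform ratios used log2 counts with 0.5 added and exact permutation tests (scipy 1.17.1). P-values measure the spread between mice of 1 experiment.

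All 37 members are named. Standard errors and adjusted p-values are given for the 12 members with the largest absolute log2 fold change among those called in DMSO against sham and for those with an unadjusted p under 0.05 in A10i against DMSO. From each further list up to 3 called genes with the largest change, and Pdk4, are named, except 1 gene that is not reported here. The members and all lists were chosen with earlier results of these data known, so they are no independent evidence. Bhlhe40 was named after its values were seen.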

Additional observations from a re-analysis of the deposited data

Results flagged for a closer look

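Dixon's test marked a single mouse as apart from the other 3 of its group in 8 of 138 groups tested, where chance alone gives about 6.9. The gap to the nearest mouse as a share of the group's range was 0.924 for Gpi1 (DMSO mouse A127, lowest), 0.868 for Pfkm (DMSO mouse A129, lowest), 0.877 for Pgam1 (DMSO mouse A129, highest), 0.838 for Pgk1 (A10i mouse A117, lowest) and 0.939 for Pkm (A10i mouse A117, lowest). Among the ratios it was 0.884 for Pfkm to Pfkl and 0.966 for Eno3 to Eno1, both in the DMSO mouse A129, which was lowest. The summed neutrophil markers of the DMSO mouse A127 were lowest with 0.841.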

How the results depend on the processing

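No paired analysis was possible because mice of different groups share no replicate number. Scaling by library totals moved the median of all genes to 0.21 (DMSO against sham) and 0.18 (A10i against sham) on the log2 scale and flipped no called member. In A10i against sham it gave 17 higher and 1 lower calls. The lower calls there were 7 with DESeq2, 5 without a filter, 1 in the joint fit and 8 at a threshold of 0.05. In A10i against DMSO, DESeq2 called 1 member lower. With the counts of its copies added, Gapdh in A10i against sham was -0.044. Leaving out 1 mouse, the calls in DMSO against sham were 7 to 13 higher and 0 to 5 lower, and in A10i against sham 7 to 13 higher and 0 to 6 lower. The isoform pairs that were lower in infarcted hearts then numbered 0 to 14, and 0 when DMSO or A10i mice alone were set against sham, where 35 splits cannot pass. The muscle forms that were higher relative to the markers numbered 0 to 5.

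Relative to the markers without Myh6, 3 forms were higher, and Slc2a4 (-0.12), Pfkm (-0.11), Eno3 (-0.083) and Pfkfb2 (-0.018) turned sign. Relative to the troponins 0 were higher and 6 lower, and Slc2a4 (-0.50), Hk2 (-0.14), Pfkm (-0.49), Aldoa (-0.082), Pgam2 (-0.18), Eno3 (-0.46), Ldhb (-0.30) and Pfkfb2 (-0.39) turned sign. Pdk2 ranged from -0.088 to 0.016 with 1 mouse left out. Between A10i and DMSO the uncalled ratios that turned sign with 1 mouse left out ranged from -0.23 to 0.36 (Hk2 to Hk3), -0.056 to 0.20 (Pfkm to Pfkl), -0.18 to 0.65 (Aldoa to Aldoc), -0.046 to 0.43 (Pgam2 to Pgam1), -0.16 to 0.13 (Ldhb to Ldha) and -0.32 to 0.25 (Pdk2 to Pdk3). The cause of these changes was not tested. With 3 sham mice, calls near the threshold depend on each of them, and the low counts of Car9, Aldoc and Slc16a3 in sham hearts limit their fold changes.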
